A study of Mus musculus with 12 samples.

Results

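The genes described are 29 members of the cholesterol and fatty acid synthesis programme of the mouse, listed by symbol with earlier results of these data known. They are 18 enzymes of sterol synthesis, 6 regulators or carriers tied to the sterol-regulatory element-binding proteins (SREBP), and 5 enzymes of fatty acid synthesis. They were looked up among 23337 gene symbols per library. Msmo1 is listed there under its older symbol Sc4mol. All 29 were among the 12038 genes with enough reads to be tested.

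Regulatory T cells (Treg), from C57BL/6 mice of 8 weeks, gave bulk RNA libraries in 4 groups of 3. Induced Treg (iTreg) were CD4 T cells cultured for 5 days with IL-2 and TGF-beta and then isolated by GFP. Natural Treg (nTreg) came from the same organs, spleen and lymph nodes, by sorting CD4 cells that carry GFP, with no culture. In each cell type the KO label stands for the genotype Hrd1 flox/flox with FoxP3-cre+-GFP, and the WT label for Hrd1 +/flox with the same FoxP3-cre+-GFP. Cre under Foxp3 acts in cells that express Foxp3, and the WT-labelled cells carry it together with a floxed copy of Hrd1, so no group had 2 unfloxed copies. In iTreg, Foxp3 comes on only during the culture. Hrd1, listed as Syvn1, tags misfolded proteins of the endoplasmic reticulum (ER) with ubiquitin.

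Cells make cholesterol from acetyl-CoA by the mevalonate pathway, which leads over squalene and lanosterol to cholesterol, and make fatty acids from the same building block. SREBP are transcription factors held in the ER membrane by Scap and the Insig proteins when sterols are plentiful. When sterols fall, Scap carries them to the Golgi, where proteases free the part that enters the nucleus and turns on the synthesis genes, Insig1 among them. Activated T cells are known to raise this programme as they grow and divide.

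The start regions of a few members are shown because they hold, or lack, the letters that SREBP and their partner factors are known to bind. RefSeq (GRCm38.p6) gave windows of 250 bases before to 50 bases after the start for 23 of the 29 members. The first 200 bases of each window, from 250 to 51 bases before the start, are printed 5′ to 3′ on the gene's strand. Capitals mark TCACNCCAC or CACCCCAC (sterol element letters), CACGTG (the E-box), CCAAT (the box of NF-Y) and GGGCGG (the box of Sp1), read on either strand. Hmgcs1 and Insig1 were among the members with the smallest p between iTreg and nTreg, Sc5d also rose, and Scap was not called.
Hmgcs1 (chr13:119690101-119690300, plus strand): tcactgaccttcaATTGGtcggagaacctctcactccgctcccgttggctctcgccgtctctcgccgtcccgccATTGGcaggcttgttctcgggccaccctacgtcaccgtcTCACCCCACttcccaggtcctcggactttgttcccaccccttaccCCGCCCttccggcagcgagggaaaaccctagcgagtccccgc
Insig1 (chr5:28071162-28071361, plus strand): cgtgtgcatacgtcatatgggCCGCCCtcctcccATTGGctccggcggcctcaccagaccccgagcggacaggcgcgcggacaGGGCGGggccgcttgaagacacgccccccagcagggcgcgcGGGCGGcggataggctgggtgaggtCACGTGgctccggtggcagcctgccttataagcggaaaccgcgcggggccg
Sc5d (chr9:42264351-42264550, minus strand): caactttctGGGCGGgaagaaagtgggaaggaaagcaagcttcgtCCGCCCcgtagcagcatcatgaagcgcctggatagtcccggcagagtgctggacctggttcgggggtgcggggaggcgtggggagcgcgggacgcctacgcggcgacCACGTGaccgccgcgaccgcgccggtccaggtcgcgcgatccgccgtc
Scap (chr9:110333038-110333237, plus strand): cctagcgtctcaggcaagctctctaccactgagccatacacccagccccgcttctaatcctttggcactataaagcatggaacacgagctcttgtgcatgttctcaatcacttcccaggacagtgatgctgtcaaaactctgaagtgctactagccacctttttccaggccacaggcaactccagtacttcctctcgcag

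In Hmgcs1 the longer sterol element holds the shorter one within it. The longer one was found in the window of Hmgcs1 and no other of the 23 members, against 1.44% of all 27025 genes in the table. The shorter one was found in Acat2 and Hmgcs1, against 3.3% of genes. CACGTG, which reads the same on both strands, was found in 5 members (Hsd17b7, Sc5d, Dhcr7, Scap and Insig1), against 8.09% of genes. Scap has 2 listed starts, and its CACGTG lies between them, outside the printed stretch before the first, which holds none of these letters.

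CCAAT was found in 20 of the 23 members (not in Acat2, Scap or Acaca), against 41.1% of all 27025 genes in the table. GGGCGG was found in 20 of 23 as well (not in Pmvk, Acaca or Fasn), against 38.2% of genes. Acaca, which rose in iTreg with both labels, held none of the letters searched for. Scap, which was not called, held CACGTG and GGGCGG in its windows. All of these are matches of letters in short windows and say nothing on binding. A link between the letters and the changes was not tested.

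Totals were 6763458 to 15462894 reads per library. Whether the replicates are separate mice is not stated in the labels, and p-values therefore rest on the spread among libraries alone. Syvn1, at 54.6, 73.1 and 63.1 CPM (TMM-normalised reads, scaled to a common library size) in iTreg KO against 61.6, 72.2 and 101 CPM in iTreg WT, overlapped between the labels. It was at 145.5, 137 and 129.7 CPM in nTreg KO, above 73.7, 87.2 and 75.5 CPM in nTreg WT, which goes against the label. The counts cover all exons, so they do not check the deletion, and every direction below is that of the libraries labelled KO. Foxp3 was present in all 12 libraries, from 191 CPM in iTreg KO replicate 2 to 668 CPM in nTreg KO replicate 3. Xist, a transcript of the inactive X chromosome, was at 483 to 2027 CPM in iTreg WT replicate 2 and the nTreg libraries numbered 3 of both labels, and at 0.232 CPM or less in the others.

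Both synthesis arms stood higher in induced than in natural Treg. In KO-labelled cells 27 of 29 members rose in iTreg and none fell, where 32.1% of all tested genes rose and 29.8% fell. In WT-labelled cells 27 of 29 rose and none fell, beside 34.8% and 30.4% of all tested genes. The KO-labelled and the WT-labelled comparison contrast different libraries, and 26 members rose in both. Both come from the same fit, with normalisation and spread taken over the libraries of both labels, so their tests are not independent. Dhcr7 rose with the WT label and had an adjusted p of 0.488 with the KO label, while Tm7sf2 rose with the KO label and had an adjusted p of 0.0742 with the WT label (edgeR). Scap, the SREBP escort, passed in neither (adjusted p = 0.911 with the KO label and 0.460 with the WT label). Changes are given on the log2 scale with the standard error (SE). Calls come from the quasi-likelihood test of edgeR, with p-values adjusted by Benjamini-Hochberg over all tested genes and a threshold of 0.05.

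The median change of the members was 1.17 (2.25-fold) with the KO label and 1.42 (2.68-fold) with the WT label, while that of all tested genes was 0.01 and 0.05. By role, the sterol enzymes had a median of 1.27 with the KO label and 1.62 with the WT label. The fatty acid enzymes had 1.49 and 1.46, and the regulators 0.72 and 0.81. Within the sterol arm the medians are given by step. The 7 enzymes of the mevalonate arm had medians of 1.58 (KO label) and 1.83 (WT label), the 3 squalene and lanosterol enzymes 1.27 and 1.61, and the 8 enzymes past lanosterol 1.14 and 1.26.

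**Figure D1:**
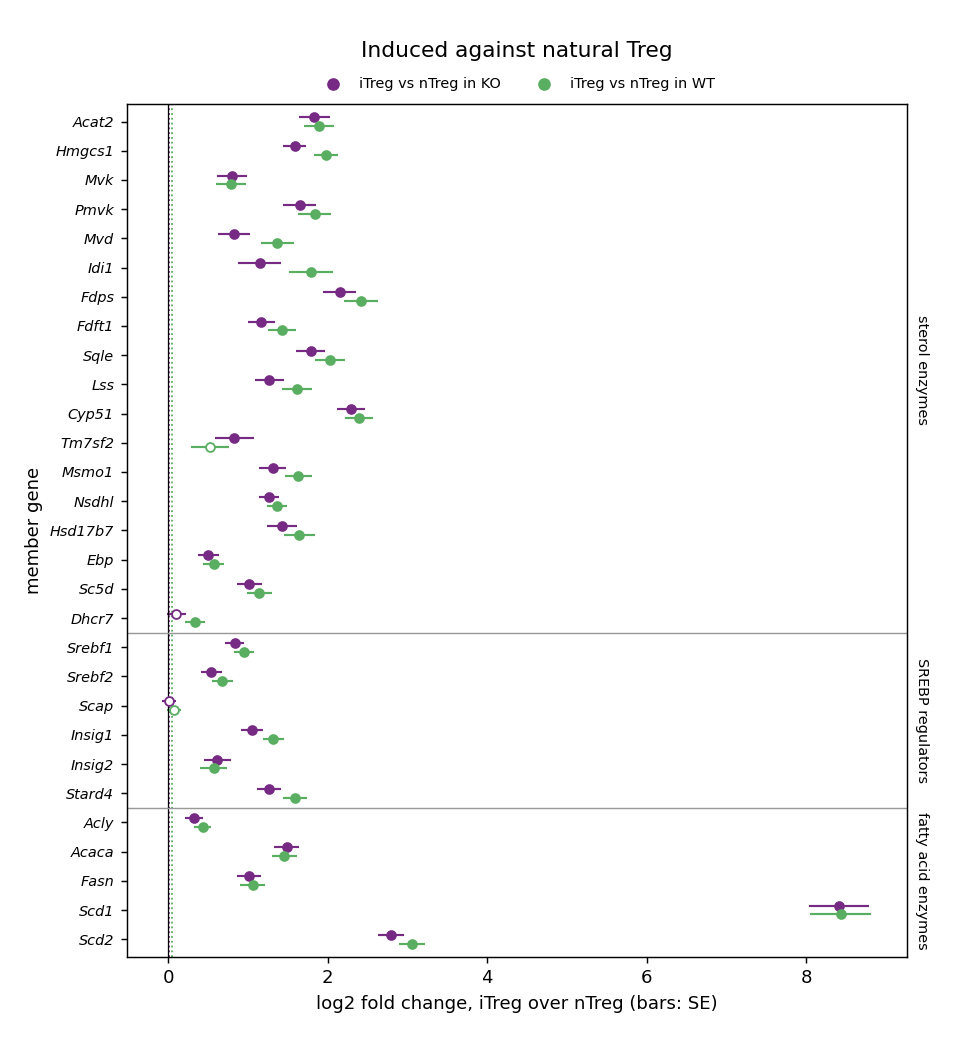
Change of each member between induced and natural Treg as log2 fold change (x axis, points with SE bars) within the KO label (purple) and within the WT label (green), filled where edgeR's test passed and open where it did not; dotted lines mark the median of all tested genes. Scd1 stands far to the right at 8.41 and 8.43, the other called members lie between 0.32 and 3.06, and Scap sits near 0.

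The fatty acid desaturases changed most. Scd1, the stearoyl-CoA desaturase that puts the first double bond into saturated fatty acids (chromosome 19, 44394455 to 44407879, minus strand, GRCm38), had 271, 229 and 279 CPM in iTreg KO against 0.348, 0.504 and 1.51 CPM in nTreg KO. It had 289, 252 and 341 CPM in iTreg WT against 0.739, 0.142 and 1.40 CPM in nTreg WT. Natural Treg thus held hardly any Scd1 reads. They were 25 in all in nTreg KO and 21 in nTreg WT, while the iTreg libraries held 2165 to 3859 reads each. The fitted change was 8.41 (SE 0.38, adjusted p = 3.5e-08) with the KO label and 8.43 (SE 0.38, adjusted p = 2.0e-08, edgeR) with the WT label. From the reads alone the ratio of iTreg to nTreg was 353 (95% exact interval 239 to 546) with the KO label and 341 (223 to 551) with the WT label, intervals that cover counting error only.

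Scd2, the paralogue of Scd1 that lies beside it (chromosome 19, 44293674 to 44306864, plus strand), did not share this near absence in natural Treg. It had 1576, 1628 and 1878 CPM in iTreg KO against 217, 267 and 249.8 CPM in nTreg KO, a change of 2.79 (SE 0.17, adjusted p = 1.3e-07, edgeR). It had 1804, 1788 and 2079.5 CPM in iTreg WT against 194, 291 and 196 CPM in nTreg WT, a change of 3.06 (SE 0.17, adjusted p = 4.9e-08). No iTreg library overlapped with an nTreg library for either desaturase. Lack of overlap was common between these cell types. With the KO label 4103 of the 12038 tested genes were higher and 3948 lower without overlap, and with the WT label 4505 and 4075. Of the 29 members 27 were higher without overlap with either label. As paralogues they have similar coding sequences, and how reads that match both were counted is not given in the sources used here.

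The other fatty acid enzymes rose less. Acaca, the acetyl-CoA carboxylase that commits acetyl-CoA to fatty acids, averaged 48.6 ± 5.38 CPM in iTreg KO against 17.4 ± 2.64 CPM in nTreg KO, and 48.5 ± 7.82 CPM in iTreg WT against 17.7 ± 1.92 CPM in nTreg WT (SD, n = 3 each). Its change was 1.49 (SE 0.16, adjusted p = 9.1e-06) and 1.46 (SE 0.16, adjusted p = 9.2e-06, edgeR). Fasn, the fatty acid synthase, averaged 576 ± 59.8 CPM in iTreg KO against 285 ± 26.8 CPM in nTreg KO, and 563 ± 131 CPM in iTreg WT against 270.5 ± 12.8 CPM in nTreg WT (SD, n = 3 each), a rise of 1.02 with the KO label and 1.06 with the WT label. Acly, which splits citrate to give cytosolic acetyl-CoA, rose by 0.32 and 0.43, the smallest called changes of the arm. The Acly call with the KO label did not hold without nTreg KO replicate 2 (0.23, adjusted p = 0.126) or iTreg KO replicate 1 (0.29, adjusted p = 0.0742). It was also lost without both nTreg libraries numbered 2 (adjusted p = 0.151). A fit on the 6 KO-labelled libraries with a term that pairs equal replicate numbers lost it too (adjusted p = 0.0734). Such a term is called the block here, and in KO to WT comparisons it pairs KO with WT libraries of a cell type.

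All 7 mevalonate enzymes rose with both labels. Hmgcs1, the HMG-CoA synthase whose start region is printed above, had 204, 254 and 289 CPM in iTreg KO against 85.9, 69.8 and 94.0 CPM in nTreg KO. It had 266, 252 and 305 CPM in iTreg WT against 71.2, 68.2 and 69.2 CPM in nTreg WT. Every iTreg library lay above every nTreg library. The change was 1.58 (SE 0.14, adjusted p = 2.5e-06) with the KO label and 1.98 (SE 0.15, adjusted p = 3.7e-07, edgeR) with the WT label.

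Fdps, which makes farnesyl diphosphate at the branch to sterols, dolichol and prenyl groups, had 119, 171 and 109 CPM in iTreg KO against 34.5, 21.5 and 34.1 CPM in nTreg KO. It had 119, 105 and 116 CPM in iTreg WT against 24.7, 19.8 and 19.2 CPM in nTreg WT. The change was 2.15 (SE 0.21, adjusted p = 3.8e-06) and 2.42 (SE 0.21, adjusted p = 1.4e-06, edgeR). iTreg KO replicate 2 was the highest library of all, and the groups did not overlap. Of the 4208 bases of Fdps exons, 1124 are shared with the predicted gene Gm43738 on the same strand, so its count is less certain.

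Acat2, the cytosolic thiolase that joins acetyl-CoA units, averaged 56.8 ± 15.8 CPM in iTreg KO against 16.0 ± 2.35 CPM in nTreg KO, and 58.0 ± 3.61 CPM in iTreg WT against 15.6 ± 2.07 CPM in nTreg WT (SD, n = 3 each). It rose by 1.83 (SE 0.19, adjusted p = 6.9e-06) with the KO label and 1.89 (SE 0.19, adjusted p = 4.6e-06, edgeR) with the WT label. Pmvk, the phosphomevalonate kinase, rose by 1.65 (SE 0.21, adjusted p = 3.0e-05) and 1.83. Mvk, Mvd and Idi1, the kinase, decarboxylase and isomerase of the arm, rose by 0.80, 0.82 and 1.15 with the KO label and by 0.79, 1.37 and 1.79 with the WT label. Idi1 had few reads, with 5.63 ± 0.634 CPM in iTreg KO against 2.56 ± 0.529 CPM in nTreg KO, and 6.10 ± 0.289 CPM in iTreg WT against 1.74 ± 0.482 CPM in nTreg WT (SD, n = 3 each).

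Past squalene, Cyp51 moved furthest. Cyp51, the lanosterol demethylase (chromosome 5, 4081145 to 4104746, minus strand), had 280.4, 386 and 346 CPM in iTreg KO against 80.5, 52.2 and 73.9 CPM in nTreg KO. It had 305, 280.4 and 370.4 CPM in iTreg WT against 59.4, 59.0 and 63.6 CPM in nTreg WT. Induced libraries were thus all above natural ones, by 2.30 (SE 0.18, adjusted p = 7.0e-07) with the KO label and 2.39 (SE 0.18, adjusted p = 3.7e-07, edgeR) with the WT label. Sqle, the squalene epoxidase, had 124, 147 and 149 CPM in iTreg KO against 50.5, 28.9 and 43.1 CPM in nTreg KO. It averaged 133 ± 21.2 CPM in iTreg WT against 32.6 ± 2.35 CPM in nTreg WT (SD, n = 3 each). It rose by 1.79 (SE 0.18, adjusted p = 6.3e-06) and 2.02 (SE 0.19, adjusted p = 2.0e-06). Fdft1, the squalene synthase, rose by 1.17 and 1.42, and Lss, the lanosterol synthase, by 1.27 and 1.61. Of the 4227 bases of Fdft1 exons, 774 are shared with Ctsb on the opposite strand.

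Nsdhl, an X-linked sterol dehydrogenase, averaged 57.8 ± 1.87 CPM in iTreg KO against 24.1 ± 2.50 CPM in nTreg KO (SD, n = 3 each). It had 62.3, 52.5 and 71.4 CPM in iTreg WT against 24.4, 23.4 and 24.3 CPM in nTreg WT, with no overlap. It rose by 1.26 (SE 0.12, adjusted p = 4.5e-06) with the KO label and 1.37 (SE 0.13, adjusted p = 1.9e-06, edgeR) with the WT label. Msmo1, the methylsterol oxidase, rose by 1.31 and 1.63 (SE 0.17, adjusted p = 6.1e-06 in the WT comparison). Hsd17b7, Sc5d and Ebp, a ketoreductase, a desaturase and an isomerase, rose by 1.43, 1.02 and 0.50 with the KO label and by 1.64, 1.14 and 0.57 with the WT label. Dhcr7, the reductase of the last step, moved least of the sterol enzymes. It averaged 66.4 ± 5.55 CPM in iTreg KO against 62.0 ± 4.89 CPM in nTreg KO, and 69.3 ± 10.9 CPM in iTreg WT against 55.0 ± 1.36 CPM in nTreg WT (SD, n = 3 each).

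The rise of Dhcr7 with the WT label was 0.33 (SE 0.12, adjusted p = 0.0289, edgeR). It did not hold without any 1 of the iTreg WT replicates 1 and 3 or the 3 nTreg WT libraries (adjusted p up to 0.119). It was also lost with RLE factors, with no filter, with DESeq2, in the fits on the 6 WT-labelled libraries with and without the block, and without both nTreg libraries numbered 2. Tm7sf2, a sterol reductase, changed by 0.83 with the KO label (SE 0.24, adjusted p = 0.0107) and 0.53 with the WT label. Without iTreg WT replicate 2 the WT value was 0.73 and passed (adjusted p = 0.0169), and it also passed without iTreg KO replicate 2 (adjusted p = 0.0488). The call with the KO label was lost without both nTreg libraries numbered 2 (adjusted p = 0.0637). Of the 4403 bases of Tm7sf2 exons, 532 are shared with Vps51 on the same strand.

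**Figure D2:**
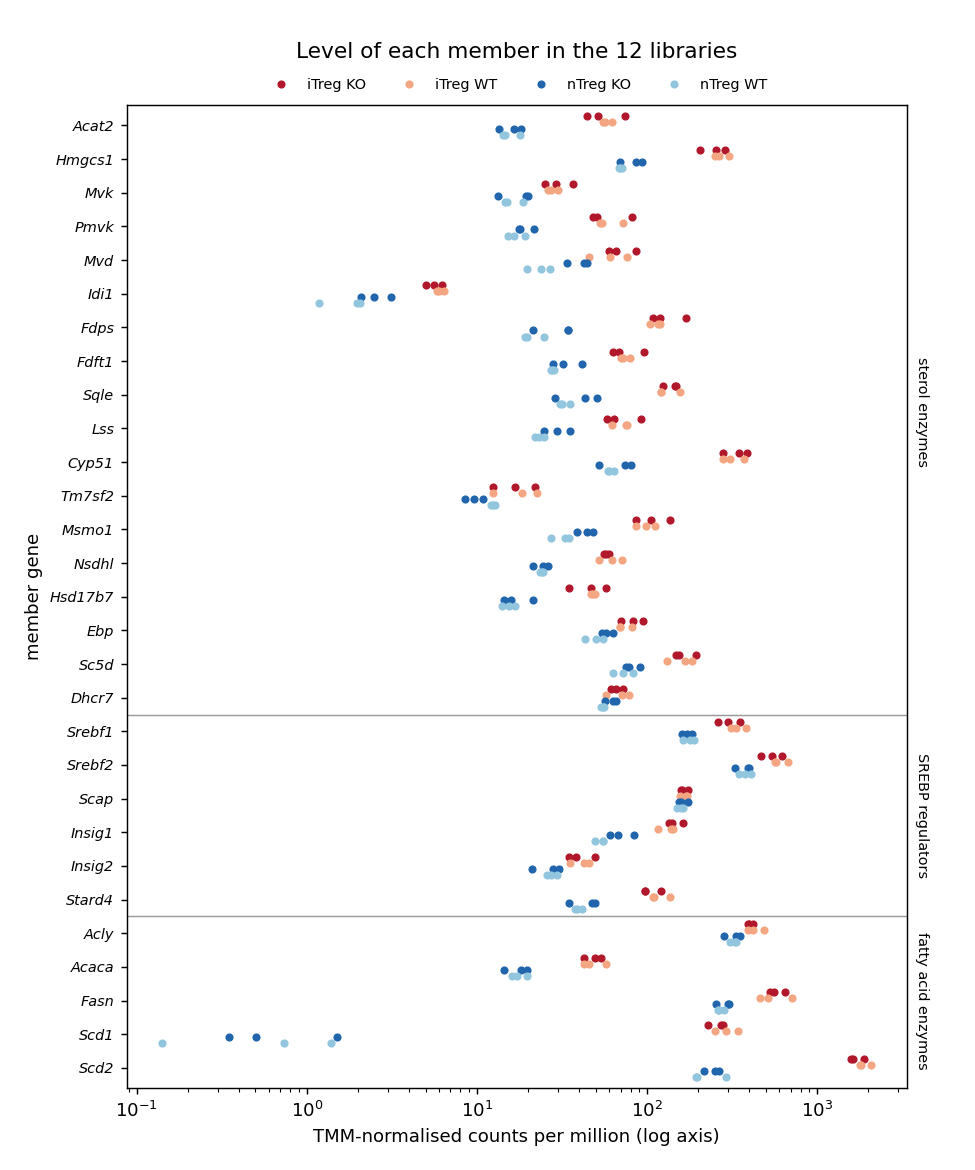
Level of each member in the 12 libraries in TMM-normalised CPM (log axis), 1 point per library, grouped by role. Induced libraries (reds) lie to the right of natural ones (blues) for most members, Scd1 is at 1.51 CPM or less in nTreg, and Scap is level in all groups.

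Among the regulators, the genes of both transcription factors rose. Srebf1, which encodes SREBP-1, had 301, 263 and 354 CPM in iTreg KO against 183, 172 and 161 CPM in nTreg KO. It had 333, 312 and 379.7 CPM in iTreg WT against 189, 178 and 163 CPM in nTreg WT. The change was 0.83 (SE 0.12, adjusted p = 0.00011) with the KO label and 0.95 (SE 0.12, adjusted p = 3.2e-05, edgeR) with the WT label, with no overlap.

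Srebf2, which encodes SREBP-2, the main factor of sterol genes, had 543, 465 and 623 CPM in iTreg KO against 392, 329 and 399.6 CPM in nTreg KO. It had 573, 564 and 675 CPM in iTreg WT against 407, 349 and 376 CPM in nTreg WT. Here too all induced libraries were higher, by 0.54 (SE 0.13, adjusted p = 0.0030) with the KO label and 0.68 (SE 0.13, adjusted p = 0.00061, edgeR) with the WT label. Gene counts do not show how much SREBP was cleaved.

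Insig1, the ER anchor that SREBP itself turns on (chromosome 5, 28071363 to 28078662, plus strand), had 135, 141 and 162 CPM in iTreg KO against 84.2, 60.4 and 67.2 CPM in nTreg KO. It had 139, 116 and 142 CPM in iTreg WT against 55.2, 54.8 and 49.3 CPM in nTreg WT. Its change was 1.05 (SE 0.13, adjusted p = 3.2e-05) and 1.32 (SE 0.13, adjusted p = 4.8e-06, edgeR). Insig2, a second anchor, rose by 0.62 and 0.57. Stard4, a soluble sterol carrier, averaged 105 ± 13.7 CPM in iTreg KO against 44.0 ± 7.99 CPM in nTreg KO, and 118 ± 16.0 CPM in iTreg WT against 39.3 ± 1.87 CPM in nTreg WT (SD, n = 3 each). It rose by 1.26 (SE 0.15, adjusted p = 1.9e-05) and 1.59 (SE 0.15, adjusted p = 2.7e-06). Scap averaged 164 ± 9.27 CPM in iTreg KO against 163 ± 10.3 CPM in nTreg KO, and 166 ± 8.55 CPM in iTreg WT against 157 ± 6.86 CPM in nTreg WT (SD, n = 3 each), changes of 0.01 (95% interval -0.18 to 0.20) and 0.08 (-0.12 to 0.27). The Scap value with the KO label took the opposite sign in several other fits.

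Per kilobase of exon, the order of the members also differed between the cell types. The length used was that of all annotated exons of a gene merged. Transcripts present in these cells may be shorter, so places between genes are approximate. Scd2 stood first in iTreg at 310.1 ± 29.6 CPM per kilobase with the KO label and 346 ± 30.0 with the WT label (SD, n = 3 each). In nTreg Acly stood first at 61.2 ± 6.86 CPM per kilobase with the KO label, and it also stood first with the WT label, followed by Srebf2, Scd2, Srebf1 and Fasn. In iTreg KO the places after Scd2 were held by Acly (76.5 ± 3.04 CPM per kilobase), Cyp51 (76.4, from 63.5 to 87.4 over the 3 libraries) and Srebf2 (75.7 ± 10.9), which did not differ beyond their spread. Scd1 was last in nTreg, at 0.161 CPM per kilobase with the KO label and 0.155 with the WT label. In iTreg it held the places of rank 7 (53.0) and rank 6 (60.1), and Idi1 was last.

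Markers of other cells and of division were counted beside these results. The summed level of 15 cell cycle genes was 5643 to 6383 CPM in iTreg KO against 860 to 1136 CPM in nTreg KO, and 6558 to 7567 CPM in iTreg WT against 568 to 873 CPM in nTreg WT. All 15 rose in iTreg with both labels, and their part in the sterol and fatty acid result was not tested. The summed level of 8 adipocyte markers was under 1 CPM in every library, with a highest value of 0.849 CPM in nTreg WT replicate 2, and Cfd, Cidec and Lep had no reads in any. Myeloid markers (9 genes) summed to 10.3 to 18.9 CPM in iTreg KO against 52.3 to 552 CPM in nTreg KO, and to 6.53 to 8.96 CPM in iTreg WT against 65.0 to 247 CPM in nTreg WT. Of these 9 genes, Lyz2 had no reads in any iTreg library. Of 6 T cell and Treg markers, 5 fell in iTreg with both labels, Foxp3 among them (adjusted p = 0.00236 with the KO label and 0.00637 with the WT label, edgeR), and Il2ra rose. Ikzf2, which encodes Helios, was at 21.3 to 34.5 CPM in iTreg KO against 796 to 975 CPM in nTreg KO, and at 21.8 to 30.8 CPM in iTreg WT against 931 to 1274 CPM in nTreg WT. Induced cells were cultured and natural cells were not, so cell kind and culture cannot be told apart, nor can fewer cells of a type and less RNA per cell in these bulk samples.

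The neighbouring pathway genes, 37 in all of which 36 were tested, did not move as a block. With the KO label 11 rose and 9 fell in iTreg, and with the WT label 14 rose and 6 fell. Among all tested genes 32.1% rose and 29.8% fell with the KO label, and 34.8% rose and 30.4% fell with the WT label, so the KO-label counts lay near the background. Their median change was 0.06 and 0.07. Of the 16 tested genes of the fatty acid branch 8 rose and 2 fell with either label, beside those same shares of all tested genes.

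Fads2, the desaturase that starts the synthesis of polyunsaturated fatty acids, was almost without reads in natural Treg, with 4 reads in all in nTreg KO and 2 in nTreg WT. It had 30.5, 18.3 and 28.8 CPM in iTreg KO, and 38.4, 35.9 and 47.3 CPM in iTreg WT. The ratio of reads was 221 (95% exact interval 86.0 to 813) with the KO label and 493 (136 to 4074) with the WT label. Its adjusted p was 1.8e-07 and 6.7e-08 (edgeR). Fads1, the next desaturase of that route, averaged 66.8 ± 2.78 CPM in iTreg KO against 21.2 ± 4.64 CPM in nTreg KO, and 76.1 ± 4.38 CPM in iTreg WT against 21.4 ± 3.21 CPM in nTreg WT (SD, n = 3 each), and rose by 1.82 with the WT label (SE 0.16, adjusted p = 1.2e-06).

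Acsl4 and Acsl3, which load fatty acids onto coenzyme A, rose by 1.85 and 2.76 with the KO label and by 1.85 and 3.11 with the WT label (adjusted p at most 2.1e-06, edgeR). Tmem97, a sterol-responsive ER membrane protein, rose by 2.33 and 3.02. Hsd17b12, a ketoreductase of fatty acid elongation, rose by 1.30 with the KO label. Acss2, which makes acetyl-CoA from acetate, went the other way. It averaged 15.3 ± 0.983 CPM in iTreg KO against 54.9 ± 5.51 CPM in nTreg KO, and 19.4 ± 1.77 CPM in iTreg WT against 68.8 ± 6.24 CPM in nTreg WT (SD, n = 3 each), changes of -1.84 (SE 0.12, adjusted p = 2.9e-07) and -1.83 (SE 0.12, adjusted p = 1.6e-07, edgeR). Of the 10163 bases of Acss2 exons, 197 and 395 are shared with Ggt7 and Gss on the opposite strand.

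**Figure D3:**
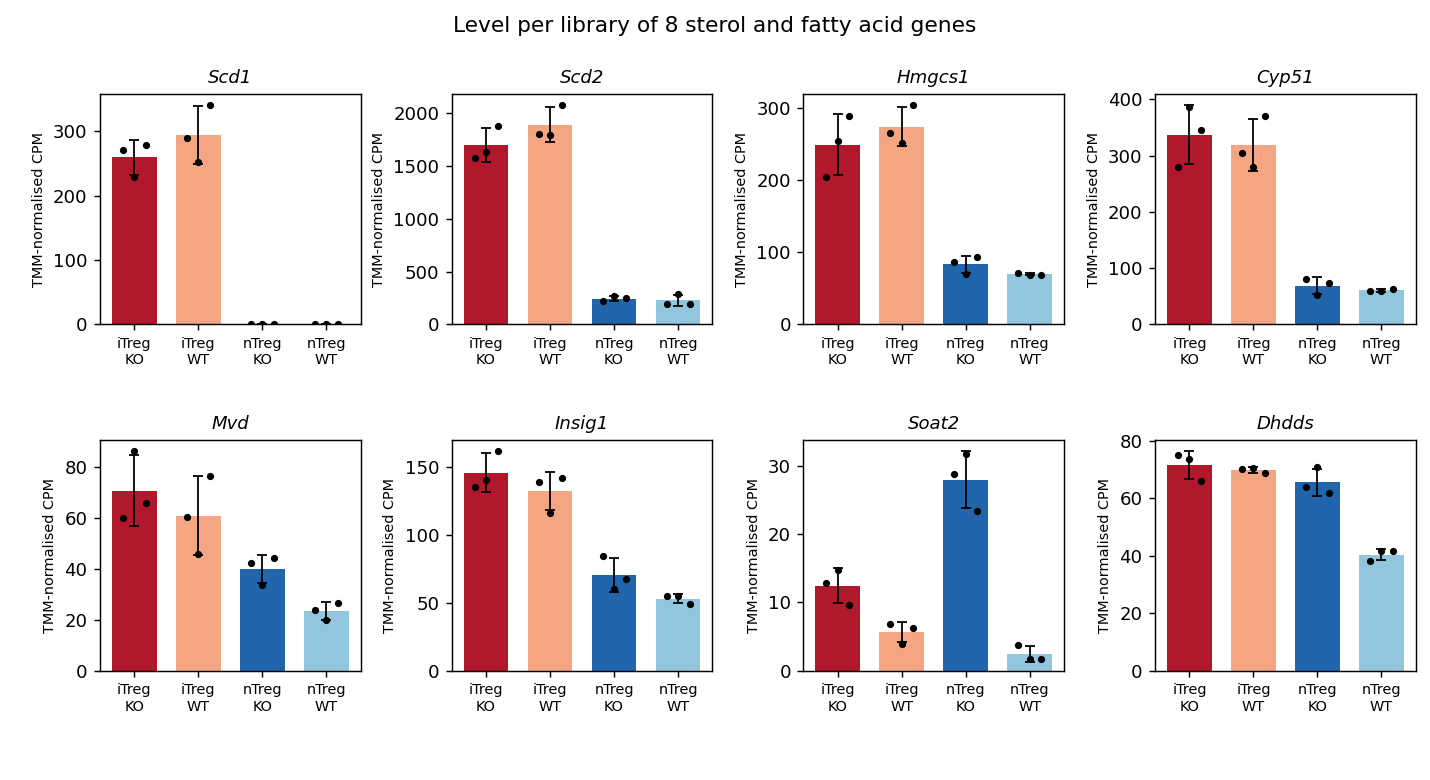
TMM-normalised CPM of 8 genes by group, with bars at the mean, error bars for SD (n = 3) and a point per library. Scd1, Scd2, Hmgcs1 and Cyp51 are high in both iTreg groups; Soat2 is highest in nTreg KO at 28.0 CPM, and Dhdds is lowest in nTreg WT at 40.4 CPM.

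Comparing KO-labelled with WT-labelled cells asked what floxing both copies of Hrd1, and not a single one, does to this programme. These comparisons use the same libraries as those above. In induced Treg none of the 29 members passed, with no member at an unadjusted p under 0.05 (7.56% of all tested genes) and none called by DESeq2, limma voom or the fit with the block. By edgeR's test 0.166% of all tested genes rose and 0.0166% fell, or 0.673% and 0.274% with the block. DESeq2 called 99 of the 12038 tested genes and limma voom 33. No member had groups without overlap in either direction, beside 4.68% of all tested genes higher and 4.95% lower. Changes ran from -0.18 to 0.23 with a median of -0.01, and 12 were positive and 17 negative.

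Srebf1 had 301, 263 and 354 CPM in iTreg KO against 333, 312 and 379.7 CPM in iTreg WT, a change of -0.16 (SE 0.12, 95% interval -0.42 to 0.11, adjusted p = 0.832, edgeR). Srebf2 changed by -0.15 (SE 0.13, interval -0.43 to 0.13, adjusted p = 0.846) and Insig1 by 0.14 (SE 0.13, interval -0.14 to 0.43, adjusted p = 0.863). The groups overlapped for all of these. Over the 29 members the intervals reached from -0.69 to 0.65, so changes of that size were not excluded for every member.

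In natural Treg no member passed either, but the sterol enzymes leaned one way. Of the 18 sterol enzymes 17 had a positive change, with a median of 0.21 (1.16-fold). The mevalonate arm had a median of 0.26 and the squalene and lanosterol enzymes 0.32. The regulators were at 0.02, the fatty acid enzymes at 0.00 and all tested genes at 0.01. The mean log2 CPM (0.5 added) of the sterol enzymes was 5.05 and 4.93 in nTreg KO replicates 1 and 3, but 4.66 in replicate 2. The nTreg WT libraries were at 4.66, 4.61 and 4.68 in replicates 1 to 3, so only KO replicates 1 and 3 lay above the WT range. Set against the WT library of the same number, the KO library was higher in each case. The 18 changes come from the same libraries and are not independent of each other. Among all tested genes 6223 changes were positive and 5768 negative. By edgeR's test 0 of 29 members were called, against 2.18% of all tested genes higher and 0.341% lower. An unadjusted p under 0.05 was found for 4 of 29 members and for 13.4% of all tested genes, about the same share. DESeq2 called 1 member and limma voom 1, Mvd in each case, against 4.12% and 8.87% of all tested genes.

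Mvd, the decarboxylase that makes isopentenyl diphosphate (chromosome 8, 122433601 to 122443422, minus strand), had 42.5, 33.9 and 44.1 CPM in nTreg KO against 23.9, 19.8 and 26.8 CPM in nTreg WT. All 3 KO-labelled libraries were above all 3 WT-labelled ones. The change was 0.76 (SE 0.21, 95% interval 0.32 to 1.21) and did not pass in edgeR (adjusted p = 0.0902), while DESeq2 gave an adjusted p of 0.0313 and limma voom 0.018. In iTreg its values overlapped, with 59.9, 86.4 and 66.1 CPM in KO against 60.6, 45.7 and 76.7 CPM in WT.

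Insig1 was the member called once replicate numbers were taken as pairs. It had 84.2, 60.4 and 67.2 CPM in nTreg KO against 55.2, 54.8 and 49.3 CPM in nTreg WT, with no overlap. The change was 0.41 (SE 0.13, 95% interval 0.12 to 0.70, adjusted p = 0.183) without the block and 0.40 (SE 0.10, adjusted p = 0.0423, edgeR) with it. The block called 5.36% of all tested genes higher and 3.64% lower, and Insig1 was 1 of 29 members. With only the 6 nTreg libraries and the block, 10 members passed, all of them higher: Hmgcs1, Mvd, Fdps, Fdft1, Sqle, Lss, Msmo1, Ebp, Sc5d and Insig1. That fit called 16.8% of its 11208 tested genes higher and 16.6% lower.

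Srebf1 had 183, 172 and 161 CPM in nTreg KO against 189, 178 and 163 CPM in nTreg WT, a change of -0.04 (SE 0.12, 95% interval -0.31 to 0.23, adjusted p = 0.935, edgeR). Srebf2 had 392, 329 and 399.6 CPM in nTreg KO against 407, 349 and 376 CPM in nTreg WT, a change of -0.02 (SE 0.13, interval -0.30 to 0.27, adjusted p = 0.980). The groups overlapped for both genes, and the sign of either value turned when single libraries were left out.

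Groups without overlap were found for 5 members on the higher side (Mvd, Idi1, Msmo1, Dhcr7 and Insig1) and 1 on the lower (Tm7sf2), beside 15.7% and 14.1% of all tested genes. Tm7sf2 had 10.9, 8.51 and 9.60 CPM in nTreg KO against 12.4 ± 0.336 CPM (SD, n = 3) in nTreg WT, the single negative sterol enzyme (-0.36, SE 0.25, adjusted p = 0.576, edgeR). Msmo1 had 48.2, 38.9 and 44.7 CPM in nTreg KO against 27.2, 33.1 and 34.6 CPM in nTreg WT (0.47, adjusted p = 0.243). For Fdps, with 34.5, 21.5 and 34.1 CPM in nTreg KO against 24.7, 19.8 and 19.2 CPM in nTreg WT, replicate 2 of KO fell among the WT libraries.

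**Figure D4:**
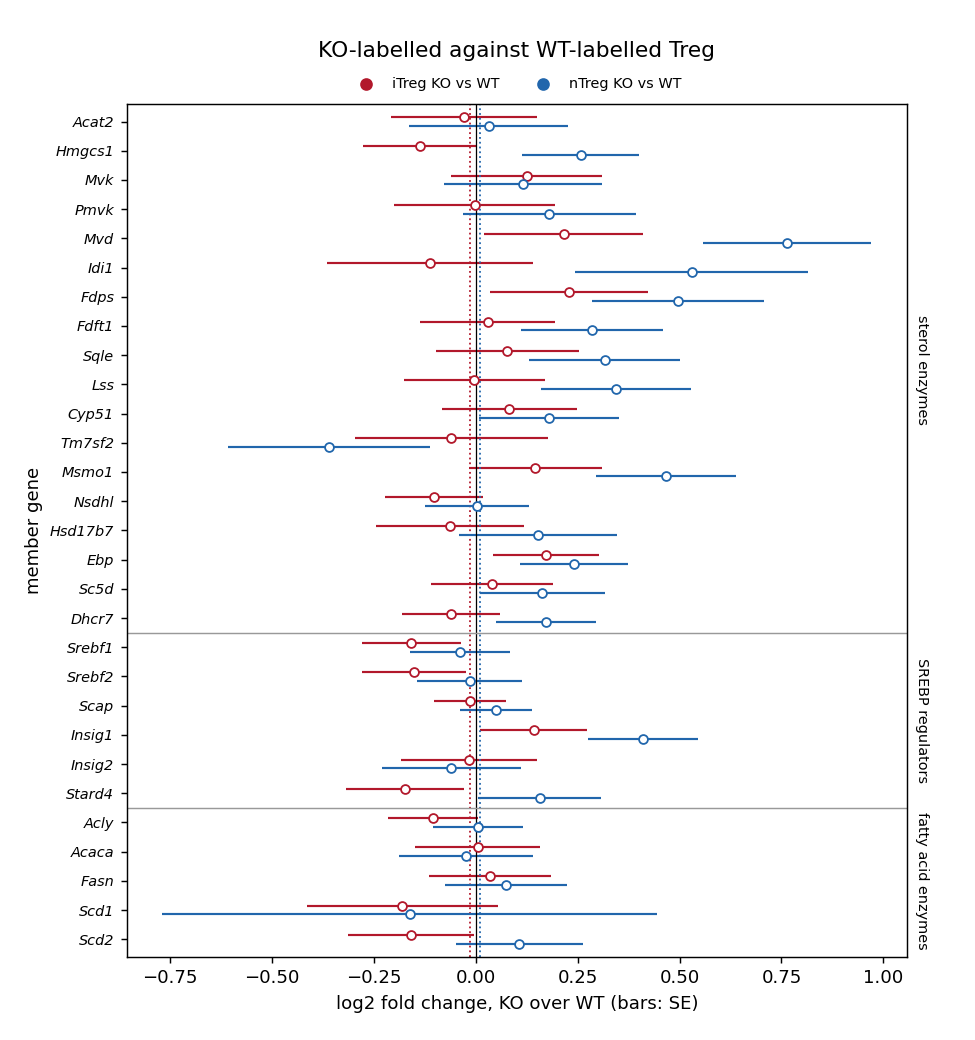
Change of each member between KO-labelled and WT-labelled cells as log2 fold change (x axis, points with SE bars) in iTreg (red) and nTreg (blue), all open because none passed edgeR's test; dotted lines mark the median of all tested genes. In nTreg 17 of 18 sterol enzymes lie right of 0, with Mvd furthest at 0.76, while iTreg values scatter on both sides.

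Single libraries stood high or low for many sterol enzymes at once. In nTreg KO, replicate 2 was the lowest of the 3 for 15 of 18 sterol enzymes and for 22 of all 29 members. It also held the highest myeloid sum of all libraries, 552 CPM against 52.3 and 104 CPM in the other nTreg KO libraries. The cell cycle sum of nTreg KO was 1136, 860 and 889 CPM in replicates 1 to 3, the same order as the mean log2 CPM of the sterol enzymes. In iTreg KO it was 6383, 5643 and 5935 CPM, the reverse of the order of those means (5.94, 6.32 and 6.11). In both WT groups the orders differed. Plasma cell markers (4 genes) summed to 18.3 and 29.7 CPM in replicate 1 of nTreg KO and nTreg WT. They summed to 1.95 CPM or less in the other nTreg libraries. The part of these sums in the result was not tested. Without both nTreg libraries numbered 2 no member was called, as in the fit with all libraries. The smaller fit called 103 of 12146 tested genes, so it cannot show what these 2 libraries add. In iTreg KO, replicate 2 was the highest of the 3 for 12 of 18 sterol enzymes but for 0 of 5 fatty acid enzymes, and had the lowest Foxp3 (191 CPM against 392 and 375 CPM). In iTreg WT, replicate 3 was the highest for 13 sterol enzymes and replicate 2 the lowest for 14. In nTreg WT, replicate 1 was the highest for 10 of 18 sterol enzymes, and replicate 2 was the lowest for 9 and the highest for 1. Over all 29 members, nTreg WT replicate 1 was the highest for 15 and the lowest for 8. B cell markers summed to 16.5 to 17.2 CPM in nTreg KO against 28.0 to 34.0 CPM in nTreg WT, and Cd22 was the called one of the 6 genes (lower, adjusted p = 0.0104, edgeR).

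The 2 KO effects were set against each other, as iTreg minus nTreg. None of the 29 members passed in edgeR, where 0.0166% of all tested genes were higher and 0.274% lower. None had an unadjusted p under 0.05, against 7.44% of all tested genes. DESeq2 and limma voom called none of the members, against 140 and 103 of the 12038 tested genes. The median difference was -0.14 over the members and -0.22 over the sterol enzymes, and 25 of 29 differences were negative. The positive lean of sterol enzymes in nTreg is therefore not shown to differ from iTreg. Insig1 differed by -0.27 (SE 0.19, adjusted p = 0.894, edgeR), Srebf1 by -0.12 (SE 0.17, adjusted p = 0.991) and Srebf2 by -0.14 (SE 0.18, adjusted p = 0.983).

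Outside the members, 3 of the 36 tested neighbouring genes rose in KO-labelled natural Treg and none fell, beside 2.18% and 0.341% of all tested genes. Soat2, which esterifies cholesterol for storage and is a different gene from Acat2 (chromosome 15, 102150526 to 102163469, plus strand), had 28.9, 31.7 and 23.4 CPM in nTreg KO against 3.84, 1.70 and 1.77 CPM in nTreg WT. The lowest KO library was far above the highest WT library, a change of 3.55 (SE 0.33, adjusted p = 7.5e-05, edgeR). In iTreg it had 12.8, 14.8 and 9.69 CPM in KO against 6.83, 3.99 and 6.24 CPM in WT, again without overlap. That 2.18-fold change did not pass in edgeR (adjusted p = 0.266) and passed with DESeq2 (adjusted p = 0.028).

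Dhdds, a subunit of the enzyme that makes the dolichol chain from the product of Fdps (chromosome 4, 133969028 to 134000918, minus strand), had 64.0, 70.7 and 61.8 CPM in nTreg KO against 38.1, 41.5 and 41.6 CPM in nTreg WT. All KO-labelled libraries were higher, by 0.70 (SE 0.09, adjusted p = 0.00097, edgeR). In iTreg it averaged 71.4 ± 4.96 CPM with the KO label and 69.8 ± 1.03 CPM with the WT label (SD, n = 3 each), so nTreg WT was the group that stood apart. Its difference of KO effects was -0.67 (SE 0.13, adjusted p = 0.0678), and the adjusted p was 0.0239 with the block. Nus1, the partner subunit of Dhdds, changed by 0.43 in nTreg (adjusted p = 0.0889) and passed with the block (adjusted p = 0.0103). Acss2 changed by -0.33 and was also called with the block (lower, adjusted p = 0.0411).

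Osbp, which trades cholesterol between ER and Golgi, had 143, 163 and 176 CPM in nTreg KO against 111, 113 and 123 CPM in nTreg WT, a rise of 0.47 (SE 0.11, adjusted p = 0.0379, edgeR). Leaving out any 1 of nTreg WT replicates 1 to 3, nTreg KO replicates 2 and 3, iTreg WT replicates 1 and 2 and iTreg KO replicate 1 ended that call (adjusted p from 0.0547 to 0.174). In iTreg none of the 36 neighbouring genes passed in edgeR, where 0.166% of all tested genes were called higher and 0.0166% lower. An unadjusted p under 0.05 was found for 6 of the 36 and for 7.56% of all tested genes.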

How the data were processed

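The deposited files hold raw counts per gene symbol, 1 file per library, made by the authors with tools named in the submitters' processing notes: cutadapt 1.13, STAR, HTSeq 0.6.1p1 and DESeq2, with build mm10. The role and order of these tools, the annotation, the use of strand and the treatment of reads with several matches are not given in the sources used here.

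From these counts, edgeR 4.0.16 (R 4.3.3) was run with TMM factors, its filter on low counts (filterByExpr, set to 10 reads per library and 15 in total) and the robust quasi-likelihood test over all 12 libraries in 4 groups (8 residual degrees of freedom). P-values were adjusted over the 12038 genes left, and the steps were tested on simulated data. CPM are TMM-normalised. Intervals are 95%. Totals per library were 6763458 to 15462894 reads, and no library matched another.

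The fit described above has no pairing of libraries, and calls come from it unless another is named. In the block, replicate numbers were taken as pairs between KO and WT of a cell type (4 residual degrees of freedom). This alternative was run since deviations from the group means correlated in every same-numbered pair (r = 0.307 to 0.629 in iTreg and 0.438 to 0.572 in nTreg, otherwise at most 0.135). Between iTreg and nTreg the deviations did not correlate in same-numbered pairs (r from -0.0539 to 0.0953).

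The members, lists and tests were chosen with earlier results of these data known. Named in full were the 12 members of smallest p in each iTreg to nTreg comparison, Srebf1, Srebf2 and Insig1, called members and up to 6 called neighbouring genes per comparison. Others were chosen after their values were seen. Alternatives were RLE factors, no filter, a filter of CPM 5 in 3 libraries, DESeq2 1.42.0, limma 3.58.1 voom with quality weights, the replicate block, fits on the 6 compared libraries, and leaving out libraries. Coordinates and exon lengths are from GENCODE (GRCm38), start regions from RefSeq (GRCm38.p6).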

Additional observations from a re-analysis of the deposited data

Results flagged for a closer look

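The KO effect of Soat2 differed between the cell types. The KO to WT change was 2.42 lower on the log2 scale in iTreg than in nTreg (-2.42, SE 0.43, adjusted p = 0.0385, edgeR's interaction term), and all 3 KO-labelled libraries lay above all 3 WT-labelled ones in each cell type. Without 1 library the value ran from -2.88 to -2.21. The adjusted p was then 0.0723 to 0.163 without any 1 of nTreg WT replicates 2 and 3 or nTreg KO replicates 1 to 3, and 0.0591 to 0.117 without iTreg WT replicate 1 or 3 or iTreg KO replicate 1 or 3. It was 0.412 without both nTreg libraries numbered 2 and 0.394 without the 3 libraries with Xist. With the replicate block it was 0.0225.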

How the results depend on the processing

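Between iTreg and nTreg, 25 to 28 members were called with the WT label and 25 to 27 with the KO label under all alternatives, and all of them were higher. Those fits called 5874 to 8466 genes with the WT label and 6213 to 7973 with the KO label, of 10376 to 16466 tested. With the replicate block across cell types 27 members were called with either label. That fit called 3962 of 12038 genes higher and 3718 lower with the KO label, and 4265 and 3786 with the WT label. For KO against WT the counts depended on the fit. In nTreg, DESeq2 and voom called 1 member each (Mvd), the replicate block 1 (Insig1), the fit on the 6 nTreg libraries 2 (Mvd and Msmo1) and the same fit with the replicate block 10. Genes called in nTreg, 304 in the fit described, numbered 496 with DESeq2, 1068 with voom, 1083 with the replicate block, 1142 with 6 libraries and 3746 with 6 libraries and the replicate block. Leaving out 1 library gave 167 to 432, leaving out both nTreg libraries numbered 2 gave 103, and leaving out the 3 libraries with Xist gave 71. In iTreg the 22 called genes became 99 with DESeq2, 114 with the replicate block, 0 with 6 libraries, 0 to 64 with 1 library left out, 7 without the nTreg libraries numbered 2 and 0 without the 3 with Xist. The 35 genes of the difference became 140 with DESeq2, 103 with voom, 217 with the replicate block, 1 to 58 with 1 library left out, and 1 without either set of libraries.

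The sign of values near 0 turned in 11 cases. Srebf1 in nTreg ranged from -0.0929 to 0.0124 with 1 library left out, and Srebf2 from -0.0677 to 0.0717, with 0.0165 without both libraries numbered 2. Scap between iTreg KO and nTreg KO was -0.00044 with RLE, -0.0378 to 0.0632 with 1 library left out, -0.0291 without the nTreg libraries numbered 2 and -0.0067 without those with Xist. Of the other values for single genes, 2033 kept direction and call, 42 lost the call and 18 gained it. Insig2 and Acly were not called with the WT label without the libraries with Xist (adjusted p = 0.104 and 0.0576, edgeR), nor was Dhdds in nTreg (adjusted p = 0.0506). The causes were not tested. With 3 libraries a group, and 1 to 15 Scd1 reads per nTreg library, small changes were not detectable.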
